A study of Saccharomyces cerevisiae with 2 samples.

Results

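Ribonucleotide reductase, small proteins that act on it and 2 of its regulators were followed in budding yeast, Saccharomyces cerevisiae, with and without YDR374C. The 9 genes RNR1, RNR2, RNR3, RNR4, HUG1, SML1, YLR437C (DIF1), DUN1 and RFX1 were found by name among the 6256 genes of the array. They were chosen by name with their ratios in this same comparison already known, so the ratios below are a description and carry no test of their own. RNA of the wild type, labelled with Cy3 (green), was hybridised together with RNA given as that of the YDR374C deletion strain, labelled with Cy5 (red), on each of 2 arrays. Both strains had the background BY4741, a haploid laboratory strain that lacks LEU2, URA3 and MET17, and were taken from SD, a defined medium, while growing exponentially, at an OD600 of 0.7.

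Ribonucleotide reductase turns ribonucleotides into the deoxyribonucleotides that DNA synthesis and repair consume. In yeast a large subunit, mostly Rnr1, binds the nucleotides, and a small subunit of Rnr2 and Rnr4 supplies the radical that starts the reaction. Cells limit the enzyme by inhibitors that bind its subunits, by keeping the small subunit in the nucleus, and by the repressor Rfx1, and the checkpoint kinase Dun1 lifts these brakes when DNA is damaged or replication stalls. YDR374C, now named PHO92, encodes a protein with a YTH domain, an RNA-binding fold. The labels do not say whether the 2 arrays hold separate cultures, so errors and p-values rest on 2 arrays that may differ only technically. Each SE comes from the limma fit, which pools a gene's own variance with a value shared by all tested genes. The shared value counts for 13.2 degrees of freedom, far more than 2 arrays give, so an SE mostly reflects it. For RNR3, whose arrays differed with an SD of 0.0024, the SE was 0.034.

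The dyes were not swapped, so a fixed dye effect of a probe and an effect of the strain cannot be told apart. As a check of the labels, the 1 spot of PHO92 that was well above background had signals of 271 in green against 223 in red on the first array, then 247 against 238 on the other. The other spot of this probe was dim, with 42.7 in green and 22.6 in red on array 1 and 9.13 and 14.5 on array 2. The 2 spots thus gave unlike signals. Over both spots the mean log2 ratio, red over green, was -0.23 and passed the limma test as lower. It did not pass with the scanner software's ratios (-0.31) or the authors' series table (-0.16). In the brighter spot neither channel lacked the signal, so this probe does not show that either RNA came from a strain without the gene. The red channel is the RNA labelled as deletion, and whether that strain lacks YDR374C was not tested. All 15 member spots on each array were well above background in both channels. In limma's moderated test at an adjusted p of 0.05, 36.7% of all tested genes were lower and 36.4% higher, so passing this test is common here. A fixed dye effect enters this share.

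Most of the members lay below 0. Of the 8 members that could be tested, 7 had a log2 ratio (RNA labelled as deletion over wild type) below 0 on both arrays, against 44.9% of all tested genes. In the limma test 6 members were lower and 0 higher, against the 36.7% and 36.4% given above. A log2 ratio of -0.5 or less was reached by 3 members, HUG1, RNR1 and SML1, and by 3.88% of all tested genes. The median log2 ratio of the 8 tested members was -0.37, and that of all tested genes was -0.0019. Since the members were chosen with these ratios known, nothing is read from the counts. DIF1 was left out of the fit because its single spot was marked as an outlier on array 2.

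**Figure D1:**
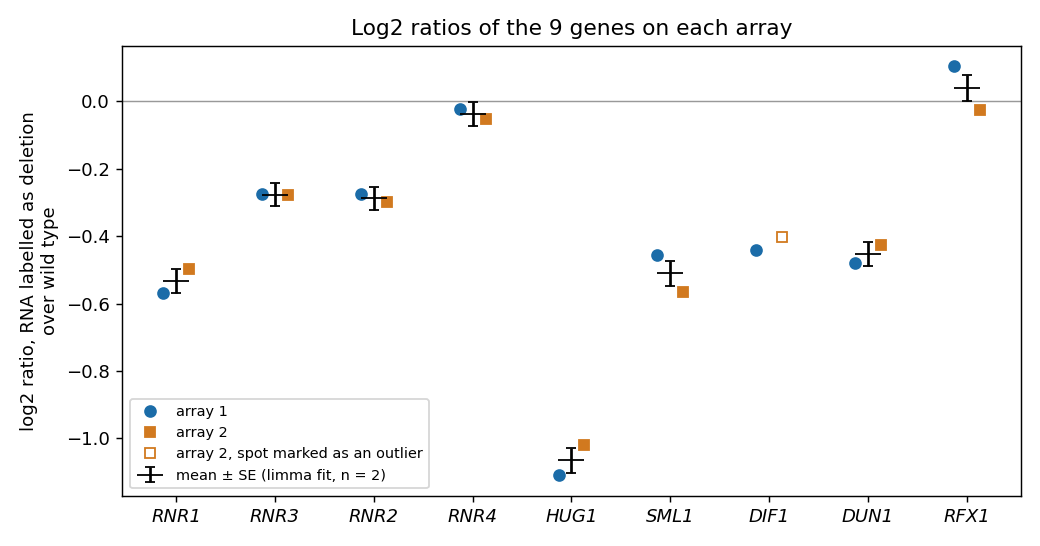
Log2 ratio of each of the 9 genes (vertical axis, RNA labelled as deletion over wild type) on array 1 (circles) and array 2 (squares), with the mean and the standard error of the limma fit over 2 arrays. HUG1 lies lowest near -1.07, RNR4 and RFX1 lie next to 0, and the open square of DIF1 is a spot marked as an outlier.

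Among the large subunits, RNR1 had the lower ratio. RNR1 encodes the main large subunit, whose transcript normally peaks as cells enter S phase. Its processed signals, averaged over its 2 spots, were 2335 in the wild type and 1573 in the RNA labelled as deletion on array 1, and 2476 and 1718 on array 2. The red channel was lower on both arrays and in each spot. The log2 ratios were -0.57 on array 1 and -0.50 on array 2, with a mean of -0.53 ± 0.04 (SE, n = 2), a 1.45-fold lower level. On array 1 this left out 1 spot that was marked as an outlier. With that spot kept, array 1 gave -0.55. A culture holds cells at all stages of the cycle, so fewer cells in the stage that expresses a gene and less RNA per cell cannot be told apart.

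RNR3 encodes the second large subunit, known for its strong induction by DNA damage. Its signals were low, 178 (wild type) and 133 (labelled as deletion) on array 1 and 179 and 140 on array 2. The log2 ratios were -0.28 on both arrays, with a mean of -0.28 ± 0.03 (SE, n = 2), a 1.21-fold lower level. All 4 spot readings lay below 0, between -0.31 and -0.24. Probes of genes that BY4741 lacks gave a wide range of signals. URA3 read between 86.0 and 182 in green and between 135 and 235 in red, which overlaps with RNR3. Its red signal was higher in each spot, with log2 ratios of 0.42 and 0.11 on array 1 and 0.54 and 0.25 on array 2. A probe of a gene that the BY4741 background lacks thus gave ratios away from 0, opposite in sign to those of RNR3. Why it did so, and whether either RNA held URA3 transcript, was not tested. LEU2 read between 36.6 and 48.8 in green and between 40.4 and 42.8 in red. MET17 read between 9.13 and 20.0 in green and between 10.8 and 38.0 in red, so both lay below RNR3. How much of the RNR3 signal is not RNR3 RNA was not tested. RNR3 and RNR1 are close relatives in sequence, and hybridisation of each to the probe of the other was not tested. The ratio of RNR1 lay below that of RNR3 by 0.29 on array 1 and by 0.22 on array 2 on the log2 scale.

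The small subunits had unlike ratios. RNR2 encodes the subunit that carries the iron cofactor and the radical. Its signals were 16000 in the wild type and 13088 in the RNA labelled as deletion on array 1, and 14397 and 11996 on array 2. Its log2 ratios were -0.28 and -0.30, with a mean of -0.29 ± 0.03 (SE, n = 2), so the RNA labelled as deletion was lower on both arrays by a 1.22-fold difference.

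RNR4 encodes the partner of Rnr2 in the small subunit, which lacks the cofactor itself and is needed for the assembly of an active complex. Its signals were 9040 (wild type) and 8903 (labelled as deletion) on array 1, and 10440 and 9984 on array 2. The log2 ratios were -0.02 and -0.05, with a mean of -0.04 ± 0.03 (SE, n = 2), close to 0 on both arrays. The log2 ratio of RNR2 lay below that of RNR4 by 0.25 on both arrays (difference -0.25 ± 0.05, SE, n = 2). On array 2 this left out 1 spot of each gene that was marked as an outlier. With outlier spots kept, array 2 gave -0.26 for RNR2 and -0.07 for RNR4, a smaller gap.

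Both small subunits are bright, and their values depended on how the dyes were balanced. Loess, the method used here, removes a trend of the ratio with brightness, while subtracting only each array's median leaves it in. With the median alone RNR2 had -0.02 and no longer passed the limma test, and RNR4 had 0.19 and passed as higher. Under that setting the 331 tested genes of like brightness to RNR4 had a median log2 ratio of 0.22, and the 212 around RNR2 had 0.26. Placed among genes of like brightness the members hardly moved. At or below the ratio of RNR4 lay 45.6% of its 331 genes with loess and 47.4% with the median alone. For RNR2 the shares of its 212 genes were 23.1% and 23.6%.

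**Figure D2:**
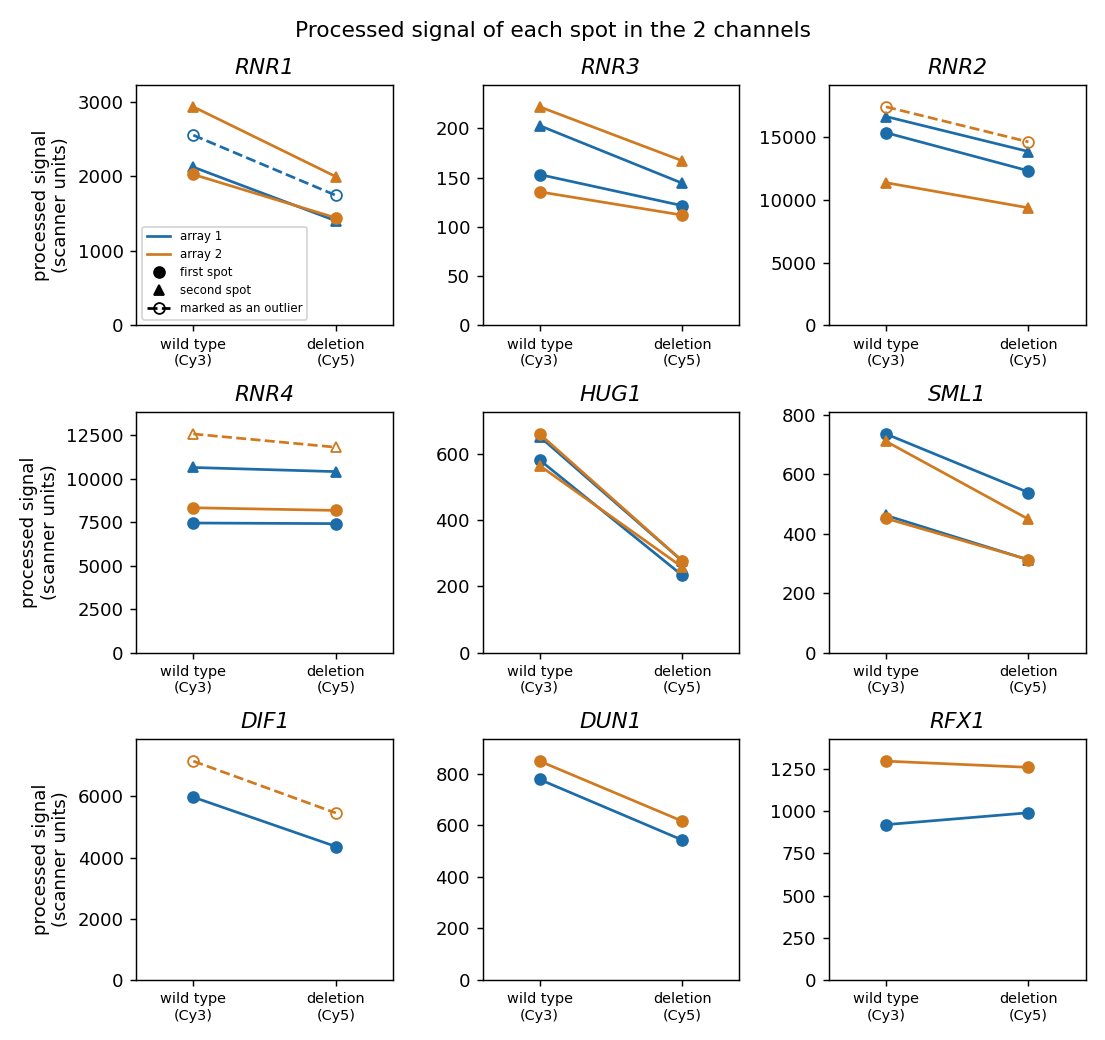
Processed signal of every spot (vertical axis, scanner units from 0, a separate scale for each gene) in the wild type (Cy3) and the RNA labelled as deletion (Cy5). Lines join the 2 channels of a spot, colours mark the arrays, and open symbols with dashed lines mark spots that the scanner software called outliers. All 4 lines of HUG1 drop steeply, and those of RNR4 are nearly flat.

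HUG1 had the lowest ratio of the 9 genes. It encodes a very small protein that binds and inhibits ribonucleotide reductase, and the gene is known for its strong induction by hydroxyurea and DNA damage. On array 1 its 2 spots read 581 and 652 in the wild type and 233 and 277 in the RNA labelled as deletion. On array 2 they read 660 and 564 in the wild type and 277 and 258 in the RNA labelled as deletion. The highest red reading, 277, lay well under the lowest green reading, 564, so the channels did not overlap.

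The log2 ratios of HUG1 were -1.11 on array 1 and -1.02 on array 2, with a mean of -1.07 ± 0.04 (SE, n = 2), a 2.09-fold lower level. This put HUG1 at rank 4 from the lowest of 5641 tested genes. HUG1 was the only member with a lower red signal and a scanner p-value under 0.01 in every kept spot on both arrays. That held for 2.52% of all tested genes. The members were chosen with these ratios known, so this describes HUG1 and is no test of it. Over the other settings for background, dye balance and spot filters the mean ranged from -1.23 to -0.97.

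SML1 encodes an inhibitor that binds Rnr1 and is destroyed in S phase and after DNA damage. Its signals, averaged over 2 spots, were 599 (wild type) and 426 (labelled as deletion) on array 1, and 581 and 381 on array 2. The log2 ratios were -0.46 and -0.57, with a mean of -0.51 ± 0.04 (SE, n = 2), a 1.42-fold lower level. The 4 spot readings ran from -0.59 to -0.42, all below 0.

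DIF1 (YLR437C) encodes a relative of Sml1 that brings Rnr2 and Rnr4 into the nucleus. Its single spot read 5977 in the wild type and 4361 in the RNA labelled as deletion on array 1, a log2 ratio of -0.44 with no replicate. On array 2 the spot was marked as an outlier and read 7155 and 5458, a log2 ratio of -0.40. With outlier spots kept the mean was -0.42 ± 0.03 (SE, n = 2). The red signal was lower on both arrays.

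HUG1, SML1 and DIF1 thus all had lower signals in the RNA labelled as deletion. HUG1 was lower than SML1 by a further 0.55 ± 0.05 on the log2 scale (HUG1 minus SML1 -0.65 on array 1 and -0.45 on array 2). The SE treats the genes as independent and does not show this gap between the arrays. HUG1 and SML1 also lie next to each other in the genome, and 1 spot of HUG1 lies beside 1 spot of SML1 on the slide. The other HUG1 spot, printed far from it, gave -1.09 on array 1 and -0.95 on array 2, against -1.13 and -1.09 for the spot beside SML1.

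Of the 2 regulators, DUN1 had a lower ratio and RFX1 one near 0. DUN1 encodes the checkpoint kinase that marks Sml1 and Dif1 for destruction and inactivates Rfx1. Its single spot read 778 (wild type) and 543 (labelled as deletion) on array 1, and 850 and 617 on array 2. The log2 ratios were -0.48 and -0.43, with a mean of -0.45 ± 0.04 (SE, n = 2), a 1.37-fold lower level.

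RFX1, also called CRT1, encodes the DNA-binding repressor of RNR2, RNR3, RNR4 and HUG1. Its single spot read 920 (wild type) and 991 (labelled as deletion) on array 1, and 1297 and 1260 on array 2. The log2 ratios were 0.10 and -0.03, opposite in sign, with a mean of 0.04 ± 0.04 (SE, n = 2). The arrays thus lay on both sides of 0. The genes that Rfx1 represses ranged from -1.07 for HUG1 to -0.04 for RNR4.

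In order from the lowest, the ratios ran HUG1, RNR1, SML1, DUN1, RNR2, RNR3, RNR4 and RFX1. The array values of RNR1 overlapped with those of SML1, those of SML1 with DUN1, those of RNR2 with RNR3 and those of RNR4 with RFX1. HUG1 stood 0.53 ± 0.05 below RNR1, with no overlap of array values. DUN1 lay below RNR2 by 0.16 ± 0.05 and RNR3 below RNR4 by 0.24 ± 0.05, again with no overlap.

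**Figure D3:**
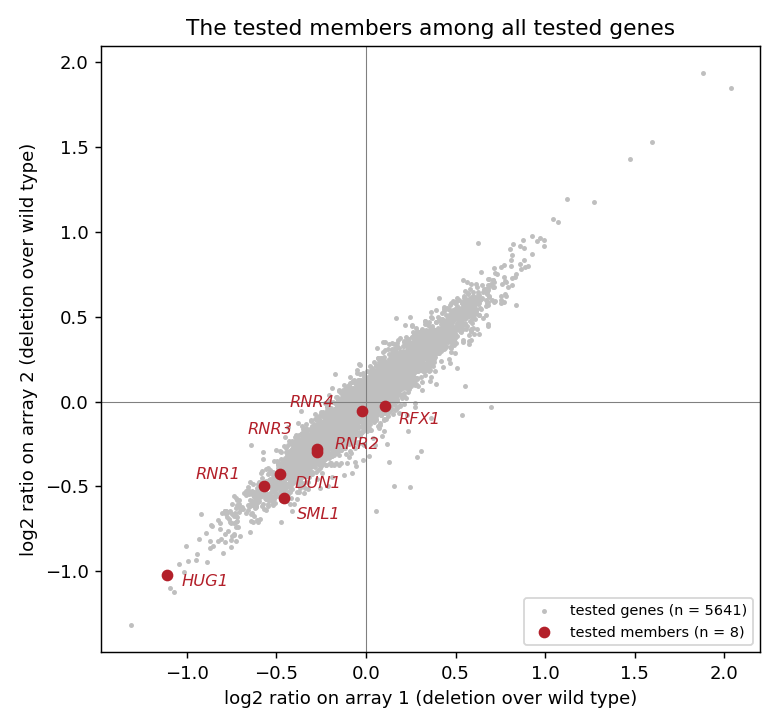
Log2 ratio (RNA labelled as deletion over wild type) on array 1 (horizontal) against array 2 (vertical) for 5641 tested genes in grey and the 8 tested members in red. HUG1 lies at the low end of the cloud, RNR1, SML1 and DUN1 lie in its lower arm, and RNR4 and RFX1 lie at the centre.

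The genes whose ratios on the 2 arrays lay nearest to those of HUG1 were of mixed kinds. By Euclidean distance over the 2 log2 ratios they were YGR176W (distance 0.08), RSC6 (0.09), YDR541C (0.09), COS12 (0.11) and VMA21 (0.14). RSC6 encodes a subunit of a chromatin remodelling complex, COS12 belongs to a family near chromosome ends and VMA21 acts in the assembly of the vacuolar proton pump. Only 2 arrays enter this distance, and all 5 genes rank among the 7 lowest ratios together with HUG1.

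The genes around the members went both ways. Of the 16 genes directly beside a member 15 were tested. In the limma test 5 were higher and 8 lower, with a median log2 ratio of -0.11 and a range from -0.24 to 0.78, against 36.4% and 36.7% of all tested genes. Around the pair of HUG1 and SML1, NTE1, which lies beside HUG1, was lower (-0.19 ± 0.04, SE, n = 2), and CMP2, which lies beside SML1, was higher (0.19 ± 0.03, SE, n = 2). CBF5, beside RFX1, was higher by 0.78 ± 0.05, with 0.62 on array 1 and 0.93 on array 2. Its SE does not show this gap between the arrays. TDA2, beside RNR1, was higher by 0.41 ± 0.03, and POL3, beside DUN1, was lower (-0.24 ± 0.03). OKP1 (-0.19), RRN7 (-0.18), YLR177W (-0.14), YIL067C (-0.13), ECM30 (-0.12) and ARG56 (-0.11) were also lower, though YIL067C and ECM30 had 0.02 and -0.07 and did not pass with median centring, and YLR177W had -0.08 without array 2. GET3 (0.22) and TIM13 (0.08) were higher, TIM13 with no call under 4 other settings and 0.04 without array 1, while YJL027C (0.08, passing as higher under 4 other settings) and FIS1 (-0.03) did not pass and CAR2 was not tested. Within 3 genes of a member, 20 of 42 tested genes were higher and 14 lower, with a median of 0.07.

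**Figure D4:**
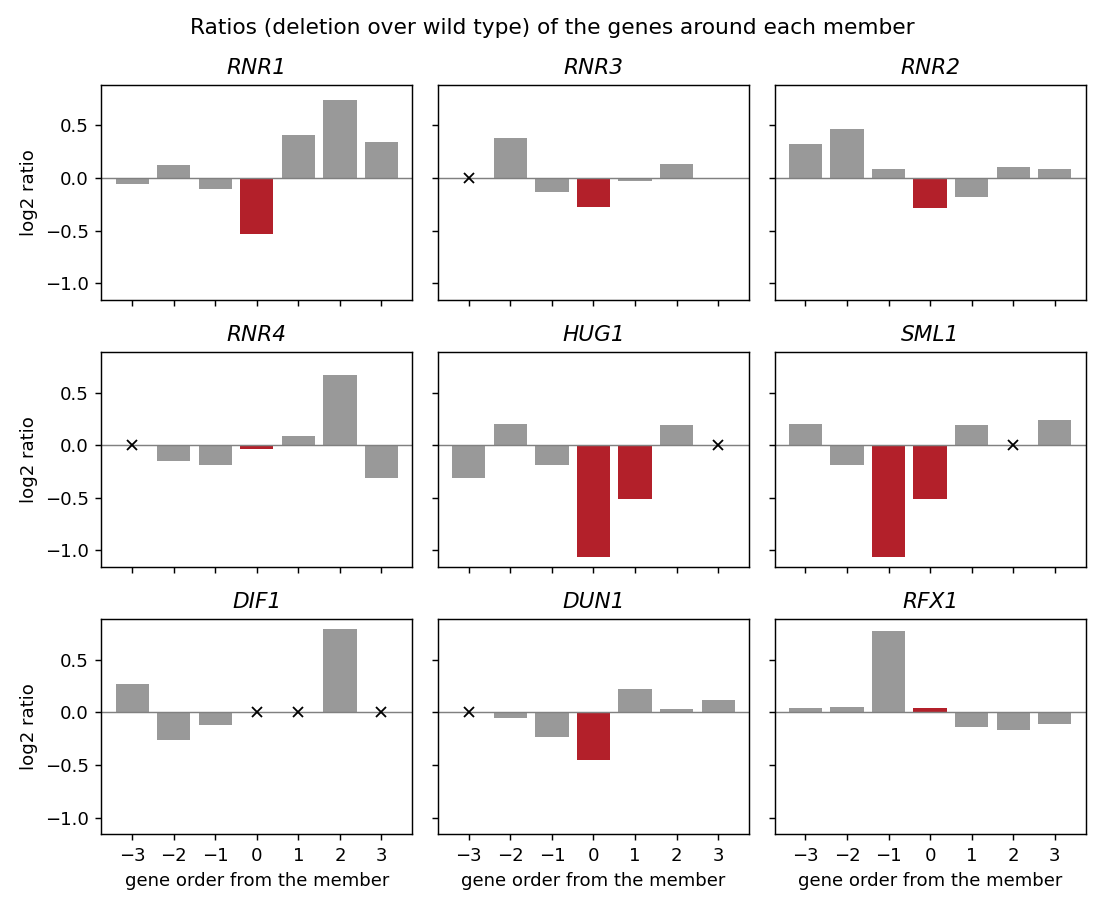
Log2 ratio (vertical axis, RNA labelled as deletion over wild type) of each member (red, position 0) and of the 3 genes on each side of it in gene order (grey; other members in red). Crosses mark genes that were not tested, DIF1 among them. HUG1 and SML1 appear as 2 adjacent red bars, and their grey neighbours lie on both sides of 0.

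Other genes of the pathway were read from 7 lists of genes that control, serve or accompany the enzyme. Each gene counted once, 92 of 96 listed genes were tested, of which 45 (48.9%) were lower and 32 (34.8%) higher, against 36.7% and 36.4% of all tested genes, with a median log2 ratio of -0.06. Of 17 tested checkpoint genes upstream of Dun1, 7 (41.2%) were lower and 7 (41.2%) higher, with a median of -0.03, so both shares lay near those of all tested genes. The fork proteins TOF1 (-0.42 ± 0.04, SE, n = 2) and MRC1 (-0.41 ± 0.03) were lower. PTC2, a phosphatase that acts on the checkpoint kinase Rad53, was higher by 0.59 ± 0.04 (adjusted p in limma 7.94e-09), and ASF1, a histone chaperone that binds Rad53, by 0.50 ± 0.03.

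Of 11 tested transcription factors and corepressors of these genes 6 (54.5%) were lower and 4 (36.4%) higher, against 36.7% and 36.4% of all tested genes, with a median of -0.11. RAP1 (-0.37 ± 0.04), SWI4 of the G1 factor SBF (-0.36 ± 0.04) and CYC8 (-0.20 ± 0.03, but -0.11 with median centring), a corepressor that Rfx1 recruits, were lower. ROX1, a repressor of hypoxic genes, was higher by 0.32 ± 0.04 (each SE, n = 2).

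Of 15 other genes known to be induced by DNA damage, all tested, 6 (40.0%) were lower and 7 (46.7%) higher, against 36.7% and 36.4% of all tested genes, with a median of 0.07. The DNA glycosylase gene MAG1 was higher by 0.59 ± 0.03 (SE, n = 2), with an adjusted p of 1.92e-09 in limma, the excision repair gene RAD23 by 0.56 ± 0.03 and the polyubiquitin gene UBI4 by 0.52 ± 0.03.

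Genes that place the small subunit or turn over Sml1 were 4 lower (66.7%) and 1 higher (16.7%) of 6, against 36.7% and 36.4% of all tested genes, with a median of -0.11. KAP122, the importin that carries Rnr2 and Rnr4, was lower (-0.38 ± 0.04, SE, n = 2; limma adjusted p = 2.88e-07), as was WTM2 (-0.11 ± 0.04, but -0.16 with median centring and -0.07 without array 2). WTM1, whose product anchors the small subunit in the nucleus, had 0.05 ± 0.03 and did not pass, though with median centring it had 0.16 and passed as higher. Of the ubiquitin ligase that acts on Sml1, MUB1 (-0.26 ± 0.04) and UBR2 (-0.11 ± 0.03) were lower and RAD6 was higher by 0.45 ± 0.03.

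Genes for the iron cofactor and for the reduction of the enzyme were 5 lower (38.5%) and 7 higher (53.8%) of 13, against 36.7% and 36.4% of all tested genes, with a median of 0.09. The thioredoxin gene TRX2 was higher by 0.56 ± 0.04 (SE, n = 2), while the thioredoxin reductase gene TRR1 (-0.54 ± 0.04; limma adjusted p = 6.88e-09) and the glutaredoxin gene GRX2 (-0.39 ± 0.03) were lower; TRR1 had -0.31 with median centring. TIS11, which encodes an RNA-binding protein of the response to iron shortage, was higher by 0.26 ± 0.03.

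Of 12 tested genes for other nucleotide enzymes 5 (41.7%) were lower and 4 (33.3%) higher, against 36.7% and 36.4% of all tested genes, with a median of -0.0045. The adenylate kinase gene ADK1 (-0.59 ± 0.04, SE, n = 2; limma adjusted p = 2.33e-09) and the dihydrofolate reductase gene DFR1 (-0.32 ± 0.03) were lower; ADK1 had -0.36 with median centring. YNK1, for the kinase that makes nucleoside triphosphates, was higher by 0.48 ± 0.03, and HAM1, which removes abnormal nucleotides, by 0.30 ± 0.04.

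The list with the lowest median was that of other targets of MBF, the G1/S transcription factor that also acts on RNR1. Of 21 tested genes 14 were lower and 2 higher, with a median log2 ratio of -0.27, and the median stayed between -0.29 and -0.25 under the other settings. That is 66.7% lower and 9.52% higher, against 36.7% and 36.4% of all tested genes. The cyclin gene CLB6 (-0.87 ± 0.03, SE, n = 2; limma adjusted p = 6.56e-11), the DNA polymerase subunit gene POL12 (-0.71 ± 0.04), SPT21 (-0.56 ± 0.04), which acts on histone gene transcription, and RFA2 (-0.54 ± 0.03), for a subunit of the single-strand DNA-binding complex, were lower. This list was drawn up with a fall of G1/S genes in these data already known, so its counts are no independent evidence of a direction. TOF1 stands in this list and in a list above.

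**Figure D5:**
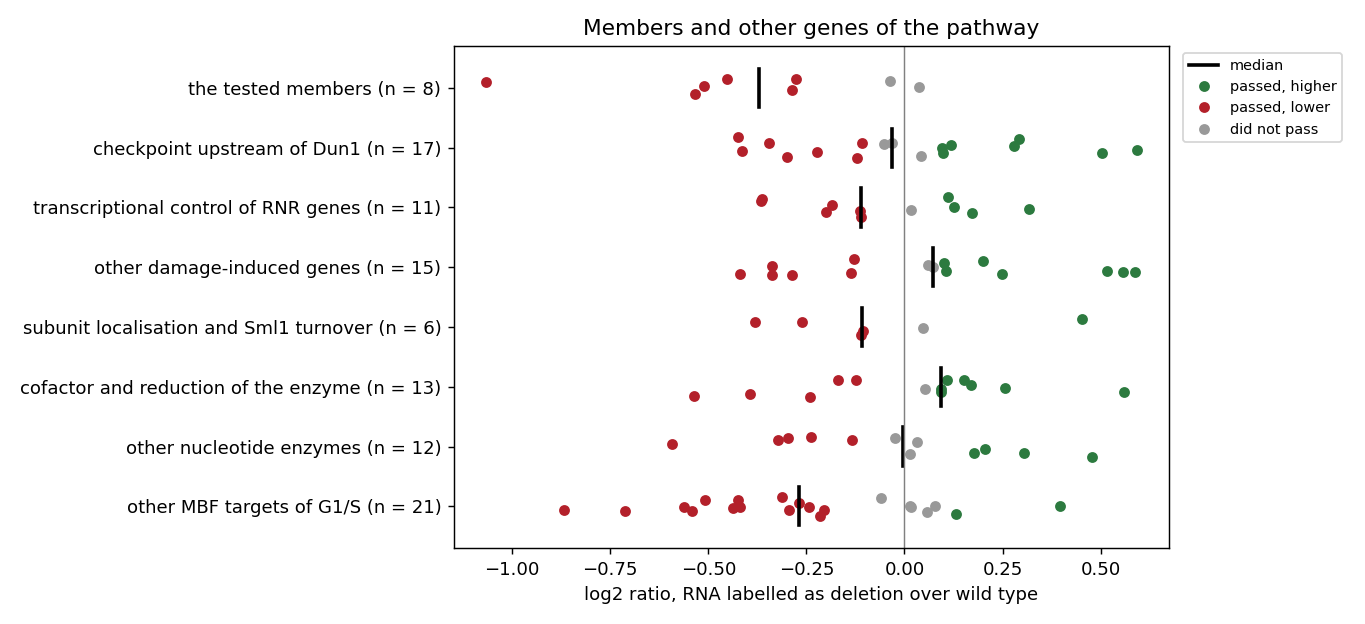
Log2 ratios (horizontal axis, RNA labelled as deletion over wild type) of the 8 tested members and of the tested genes of 7 pathway lists. Points are genes, coloured by the limma test, and black bars are medians. The members' median of -0.37 and that of the MBF targets, -0.27, lie lowest.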

How the data were processed

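Per the file headers, the deposited scanner files hold each spot's intensity in both channels from Agilent Feature Extraction 9.5.3.1 (9.3.2.1 per the submitters' processing notes). Each spot also has a deposited log10 ratio, red over green after LOWESS, and a deposited p-value of that ratio. A series table deposited by the authors gives log2 values, which ran with the scanner ratios (slopes 0.987 and 0.988, medians -0.00491 and -0.000163); their averaging and normalisation are not given in the sources used here.

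Background was corrected by normexp (offset 50) on mean signals, which were normalised by loess within each array with control spots at weight 0, and averaged over spots in limma 3.58.1 under R 4.3.3. Outlier spots were left out (6.47% and 8.92% of gene spots). A gene entered the test if, on both arrays, either channel was well above background (5641 genes). Ratios were tested against 0 with limma's moderated test and Benjamini-Hochberg adjustment over them all. Of the 15 member spots on each array, 1 on array 1 and 3 on array 2 were marked as outliers, and none was saturated. Both arrays lie on 1 slide with 1 scan, so no batch could be tested. Processed signals printed for the members include outlier spots. The SE of a difference between genes treats them as independent.

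Names and gene order came from RefSeq (assembly R64), where 5756 of the 6256 array genes were found. The members and lists were chosen with earlier results of these data known. Named genes are the members, PHO92, up to 4 genes a list with the largest ratios and 1 sign on both arrays (all genes of the list of 6), direct neighbours and the 5 genes nearest HUG1; a gene that this rule takes is not reported here. The test was tried on simulated data. Alternatives covered background correction, dye balance, spot and dimness filters, the scanner's and the authors' ratios, and each array alone. Promoter and protein sequences were not used here.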

Additional observations from a re-analysis of the deposited data

How the results depend on the processing

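Each value was recomputed with median centring, the scanner software's ratios, the series table, no offset, no background correction, outlier spots kept, no dimness filter, both channels above background, and no saturated spots. Of 73 such values of the 9 members, 71 kept the direction and the side of the limma threshold. The exceptions both came with median centring, where RNR2 had -0.0233 (limma adjusted p = 0.554) and RNR4 turned to 0.19 (limma adjusted p = 0.000426). That setting leaves the trend with brightness in place. These p-values show the side of the threshold only, since the members were chosen with their ratios known. RNR3 ranged from -0.40 with the series table to -0.22 without background correction. DIF1 had a second value only with outlier spots kept. With only 1 array there is no test; a single array gave RFX1 -0.03 or 0.10. Of 459 values of 51 other named or neighbouring genes, 446 kept direction and side; YIL067C, beside RNR3, turned from -0.13 to 0.0219 with median centring. Counts over all genes stayed between 1913 and 2236 higher and between 1941 and 2310 lower. The planned promoter and protein descriptions were not run. Both strains lie on each array, so the ratio tested already pairs them and no other pairing was made. The 2 arrays limit the precision.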

Other observations

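Near the members lie 2 genes with low ratios that the limma test left out because of outlier spots; they were picked after their values were seen. IMD4, an IMP dehydrogenase gene of guanine nucleotide synthesis 2 genes from SML1, had a log2 ratio of -1.01 on the first array and -0.67 on the second with those spots kept. ATF2, an alcohol acetyltransferase gene that lies 3 genes from RNR4, had -0.77 and -0.79.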
